A study of Mus musculus with 6 samples.

Results

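Ion channels of the potassium, transient receptor potential (TRP), calcium, chloride, sodium and Piezo families were followed in RNA-seq of endothelial cells from the cerebellum of wild-type and Ccm3 knock-out mice. The members are the genes of the deposited table whose symbol begins with Kcn, Trp (classes a, c, m and v), Cacn, Clcn, Scn or Piezo and fits the family's numbering, with Kcne3 left out. Of 95 genes that fit, 92 had a normalised value of at least 10 in at least 3 of the 6 libraries, out of 14076 genes that passed this minimum. Kcnk3, Trpm2 and Trpm5 did not pass, with values of 4.71, 8.91 and 9.03 in the library that had to reach 10, and the members just inside the limit were Kcnc4, Kcnd1 and Kcns3 at 10.2, 10.4 and 11.3. All 6 mice were of strain C57BL6 and at postnatal day 9, with 3 of genotype wild-type and 3 of genotype Ccm3 knock-out. Values of the libraries of a group are given in the order 1, 2 and 3. Ccm3 is an older name of Pdcd10, whose loss in brain endothelium leads to cavernous malformations. The sources used here do not say how the Ccm3 allele was made or which cells lost it. Cells were isolated from dissociated cerebella with beads against CD45, a leukocyte protein, and CD31, an endothelial protein, and each library is described as coming from 1 mouse.

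Libraries held 11075769 to 21142333 gene reads, and 3 reads correspond to a normalised value of 1.96 to 3.41. Pdcd10 itself fell from normalised values of 529, 522 and 689 in the wild-type group to 230, 154 and 309 in the knock-out group (fold 0.39, 95% interval 0.26 to 0.57, adjusted p = 0.0162). Each fit that left out a wild-type library lost this call (0.0511 without wild-type 1, 0.0605 without 2 and 0.0619 without 3). None of 10 endothelial markers was called by limma or edgeR, while DESeq2 called Pecam1 higher (adjusted p = 0.00339) and Cldn5 and Kdr lower (0.0105 and 0.0242), all with groups that did not overlap. The summed value of the 10 was between 142362 and 160703 in the wild-type group and between 126191 and 153759 in the knock-out group. Libraries and groups stood apart in other markers. Over 9 astroglial markers the sum was 6750, 6245 and 5589 in the wild-type group and 3818, 3862 and 3358 in the knock-out. Over 5 erythroid markers it was 19726, 13665 and 9924 against 6106, 5385 and 6553, and 4 of these genes fell. Of 6 platelet markers 3 were listed, without Gp9, Pf4 and Ppbp. The 3 listed summed to 82.4, 92.8 and 90.3 in wild-type and to 111, 316 and 320 in the knock-out. For these lists the groups did not overlap. The sum over 14 neuron markers was 4812 to 5141 in the wild-type group, 3090 and 3233 in knock-out 1 and 2 and 6128 in knock-out 3, with Cbln3, Gabra6, Pcp2 and Slc17a6 not in the table. The sum over 10 markers of choroid plexus epithelium, a list added after values were seen, was 73583 in knock-out 1 and 12796 to 26550 elsewhere. The mural list (13 genes of pericytes and smooth muscle) summed to 81008, 68116 and 40971 in wild-type and to 52117, 55380 and 41853 in the knock-out. Y-linked genes summed to 1.49 in wild-type 1 and to 813 to 4017 in the other 5 libraries. In such bulk samples, fewer cells of a type and less RNA per cell cannot be told apart.

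Ion channels set the membrane potential and the calcium entry of endothelial cells. In brain capillaries, inward rectifier potassium channels respond to potassium released by active neurons and hyperpolarise the endothelium, while Piezo and TRP channels admit cations when the membrane is stretched or when lipids and calcium signals open them. Calcium entering this way drives the production of vasodilators, and calcium-activated potassium channels turn it into hyperpolarisation that spreads along the vessel.

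Levels between genes were compared per kilobase of merged exons, because longer genes collect more reads. In wild-type cells the channel genes had a median of 13.2 normalised reads per kilobase, against 52.7 for all genes tested, and they ranged from 1.28 to 600. Their exons were longer, with a median of 6168 bases against 4474. Kcnj2, the inward rectifier Kir2.1, was the highest at 540, 612 and 647 per kilobase in wild-type 1, 2 and 3. Next in order of the mean came Kcnj8 (Kir6.1, the pore of an ATP-sensitive potassium channel) at 462, 386 and 191, Piezo1 at 294 in each wild-type library, and Trpm7, a magnesium-permeable channel fused to a kinase, at 146, 169 and 193. Kcnj2 did not overlap Kcnj8 in wild-type, Kcnj8 overlapped Piezo1 through wild-type 3, and Trpm7 overlapped neither Piezo1 nor the next gene, Kcnq1. Kcnq1 (Kv7.1), Clcn4, Kcna6 (Kv1.6) and Cacna1e (an R-type calcium channel) followed with means of 126, 116, 103 and 103 per kilobase, and of these neighbours Clcn4 and Kcna6 alone did not overlap. In the knock-out the mean level of Piezo1 was the highest at 498 per kilobase, ahead of Kcnj8 at 338 and Kcnj2 at 277, and Piezo1 exceeded both in all 3 libraries.

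**Figure D1:**
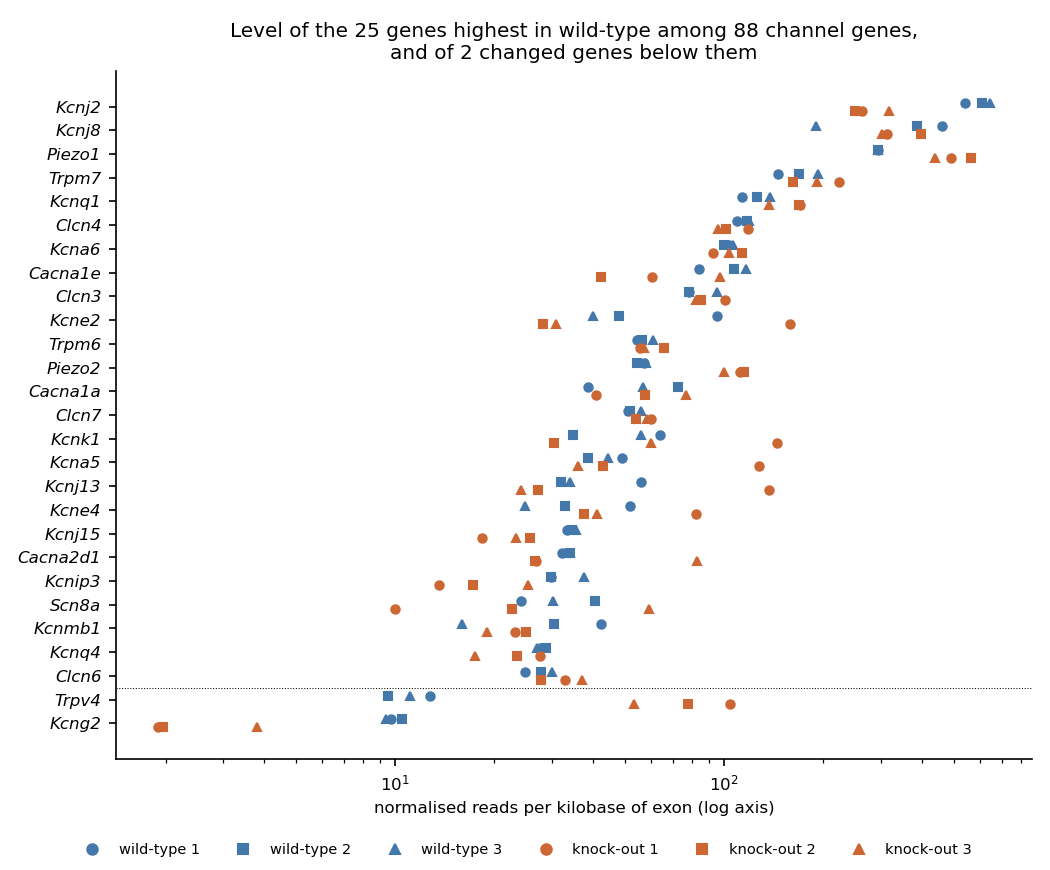
Normalised reads per kilobase of exon (horizontal log axis) of the 25 genes with the highest wild-type mean among 88 of the 92 channel genes and, under the dotted line, of Trpv4 and Kcng2; each point is 1 library, blue for wild-type and orange for knock-out. Kcnj2 leads in wild-type (600 per kilobase on average) and Piezo1 in the knock-out (498), and Trpv4 sits to the right in all 3 knock-out libraries.

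Of the 92 channel genes, 4 rose in the knock-out, Trpv4, Piezo2 and Piezo1 among them, 2 fell (Kcnj2 and Kcng2) and 86 were not called. A gene is called where the adjusted p of limma's two-sided test on log2(value + 1), corrected by Benjamini-Hochberg over all 14076 genes, is under 0.05. Among all genes tested, 3.6% rose and 2.64% fell by this rule, 6.24% in either direction, so the share of channel genes called was close to the background. The median log2 change was -0.017 over the channel genes and -0.0067 over all genes. Knock-out libraries lay above all wild-type libraries for 9 members and below them for 6, against 12.8% of all genes above and 12.8% below. With edgeR on the recovered reads the same 6 members were called (6.37% of all genes), and DESeq2 (9.75% of all genes) called 3 more, which were Kcnk6, Kcnj15 and Kcnn3. On simulated counts DESeq2 made more false calls than limma and edgeR. The number of fallen channel genes was 1 when library 1 or 2 of either group was left out, and 4 without knock-out 3. By family, both Piezo genes and 1 of 10 TRP genes rose, 1 of 10 inward rectifiers fell, and 2 of 23 voltage-gated potassium channels were called. No call was made among 4 K2P potassium channels, 5 calcium-activated and related potassium channels, 8 auxiliary potassium channel subunits, 8 calcium channel pores, 9 calcium channel auxiliary subunits, 6 chloride channels and exchangers, or 7 sodium channel subunits. At an unadjusted p under 0.05 there were 14 of the 92 members, 6 of them those called, against 2668 of all 14076 genes.

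**Figure D2:**
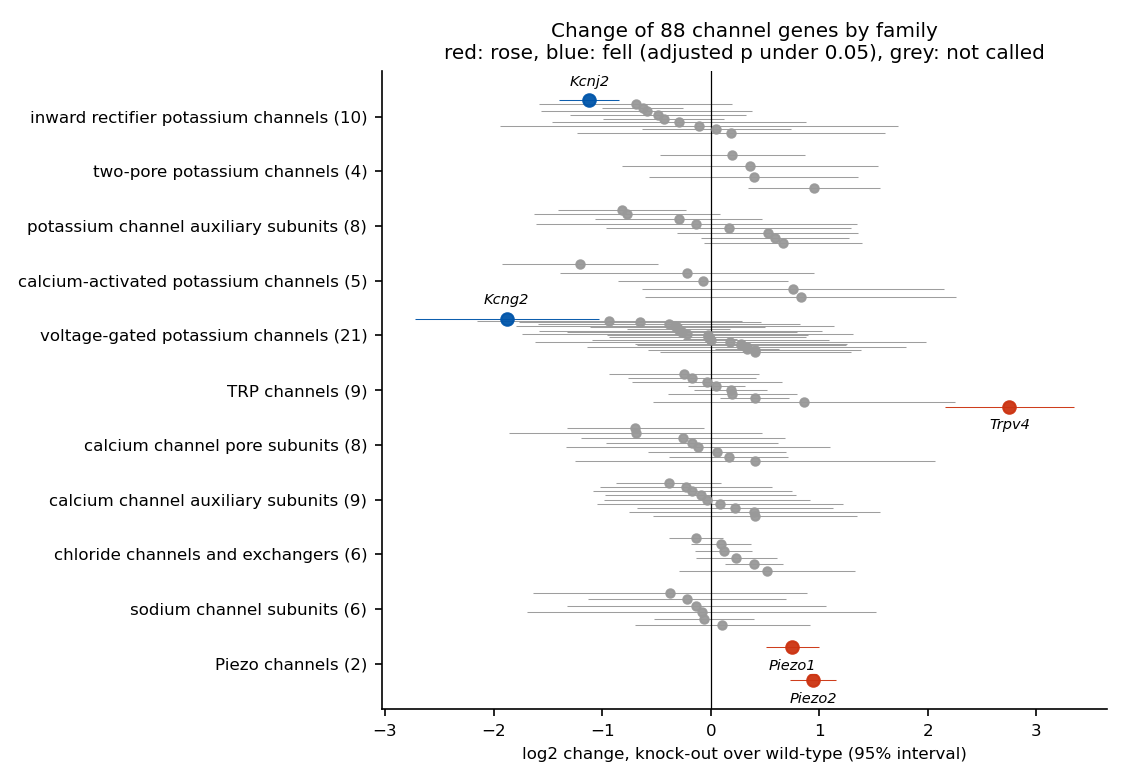
Log2 change of 88 of the 92 channel genes, knock-out over wild-type (horizontal axis, on the log2(value + 1) scale), with its 95% interval, grouped by family with the number of genes drawn in brackets; red points rose, blue points fell and grey points were not called. The 5 called genes drawn lie in 4 families, from -1.88 for Kcng2 to 2.75 for Trpv4.

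Both Piezo genes rose. Piezo1 encodes a cation channel that opens when the membrane is under tension, and in endothelium it senses blood flow. Its gene (ENSMUSG00000014444, on the minus strand of chromosome 8 at 122481698 to 122551329 of GRCm38) had 2923, 2920 and 2920 normalised reads in the wild-type group and 4871, 5599 and 4376 in the knock-out group. All 3 knock-out libraries lay above the wild-type libraries, which were nearly identical to each other. The rise was 1.69-fold (95% interval 1.42 to 1.99, adjusted p = 0.00635), from a mean of 2921 ± 1.89 to 4949 ± 615 (SD, n = 3). On the opposite strand Ctu2, a tRNA thiolation gene, covers 24.6% of the exon bases of Piezo1, and the sources used here do not say whether the authors counted reads by strand. Ctu2 was lower, with 108 to 147 normalised reads in the wild-type group and 108, 140 and 343 in knock-out 1, 2 and 3, and was not called (adjusted p = 0.667). How reads of the shared exons were assigned is not known, so these counts cannot size the part of Ctu2 in the Piezo1 values.

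Piezo2, the relative of Piezo1 best known from touch and stretch receptors of sensory neurons, lies on chromosome 18 (63010213 to 63387183, minus strand). It had 982, 936 and 997 normalised reads in the wild-type group and 1921, 1977 and 1714 in the knock-out. The groups were far apart relative to their spread, and the rise was 1.92-fold (1.66 to 2.23, adjusted p = 0.00184). Per kilobase of exon, Piezo2 stayed below Piezo1, at a mean of 56.6 in wild-type and 109 in the knock-out. The Piezo genes together summed to 348 to 352 per kilobase in wild-type and to 540 to 679 in the knock-out.

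Trpv4 showed the largest rise of the channel genes. It encodes a calcium-permeable channel opened by cell swelling, warmth and lipid messengers, through which endothelial calcium entry relaxes small vessels. The gene (ENSMUSG00000014158, chromosome 5, 114622152 to 114658421, minus strand) had 52.0, 38.7 and 45.1 normalised reads in the wild-type group, which were 50 to 70 reads before normalisation. The knock-out group had 425, 318 and 217 (191 to 487 reads), so the lowest knock-out library was several times above every wild-type library. The rise was 6.73-fold (4.45 to 10.2, adjusted p = 0.00169), or 2.75 on the log2 scale. Per kilobase of exon its mean level went from 11.1 to 78.5 normalised reads. Trpv4 is also known from choroid plexus epithelium, whose markers were high in knock-out 1. Without knock-out 1 the fold was 5.73 (adjusted p = 0.00366), and with the choroid plexus level in the fit it was 6.23 (adjusted p = 0.000825). In knock-out 2 and 3 the choroid plexus sums were 15842 and 12796, below all 3 wild-type libraries. That marker list was added after values were seen. The part of choroid plexus cells in the Trpv4 values was not tested beyond these fits.

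The sequences just upstream of the start sites are shown for 3 called genes from the RefSeq promoter table (GRCm38.p6), because Trpv4 and Piezo1 rose while Kcnj2 fell. Capitals mark GGGTG or its reverse complement CACCC, the core of the box bound by KLF transcription factors, and ACGTG or CACGT, a form of the core of the hypoxia response element. Other forms of that core were not searched. Both strands were searched, and matches of the same motif may overlap.
Trpv4, chr5:114658422-114658671, minus strand: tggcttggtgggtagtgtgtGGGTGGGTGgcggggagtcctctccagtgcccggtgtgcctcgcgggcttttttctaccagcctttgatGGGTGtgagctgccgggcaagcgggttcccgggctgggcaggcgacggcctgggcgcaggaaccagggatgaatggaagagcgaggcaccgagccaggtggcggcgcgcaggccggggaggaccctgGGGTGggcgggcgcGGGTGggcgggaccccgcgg
Piezo1, chr8:122551330-122551579, minus strand: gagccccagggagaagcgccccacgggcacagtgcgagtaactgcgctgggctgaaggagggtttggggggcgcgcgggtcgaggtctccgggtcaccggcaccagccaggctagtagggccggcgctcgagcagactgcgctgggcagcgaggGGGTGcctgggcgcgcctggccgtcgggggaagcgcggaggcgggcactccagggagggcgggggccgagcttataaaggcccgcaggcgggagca
Kcnj2, chr11:111065914-111066163, plus strand: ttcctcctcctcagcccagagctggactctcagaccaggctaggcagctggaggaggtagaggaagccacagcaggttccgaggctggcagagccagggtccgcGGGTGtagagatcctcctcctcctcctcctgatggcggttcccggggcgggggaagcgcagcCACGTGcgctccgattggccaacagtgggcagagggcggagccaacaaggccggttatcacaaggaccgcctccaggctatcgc

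The 250 bases upstream of Trpv4 held 5 matches to GGGTG or its complement and none to ACGTG. Those of Piezo1 held 1 and none. Those of Kcnj2 held 1 match to GGGTG and 2 to ACGTG, the latter being both strands of the same palindrome. At least 1 GGGTG match was present in 52.0% of 32851 promoters of this length and in 62.6% of 99 promoters of 66 channel genes found in the table, and 5 or more were present in 0.667% of all promoters. ACGTG was present in 16.6% of all promoters and 17.2% of those of channel genes. A match describes the letters in these windows and not the binding of a factor.

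Among the other TRP channels none was called. Trpm4, a monovalent cation channel opened by calcium, had 141, 147 and 146 normalised reads in the wild-type group and 180, 210 and 187 in the knock-out. The groups did not overlap, with a fold of 1.32 (1.06 to 1.65, adjusted p = 0.154). Trpm7 had a fold of 1.14 (0.90 to 1.44) and Trpm6, its close relative in magnesium uptake, 1.04 (0.87 to 1.24). Trpc6, which opens on diacylglycerol, had a fold of 0.98 (0.60 to 1.58) and was lowest in wild-type 3, as the mural markers were. In knock-out 3 the mural sum was nearly as low, and Trpc6 had 19.9 normalised reads per kilobase, against 13.4 in wild-type 3. Trpc1, Trpc4 and Trpv2 had folds of 0.89 (0.59 to 1.33), 0.84 (0.52 to 1.36) and 1.15 (0.76 to 1.73). How far mural cells bear on this value was not tested beyond the fit with the mural level, in which Trpc6 was not called.

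**Figure D3:**
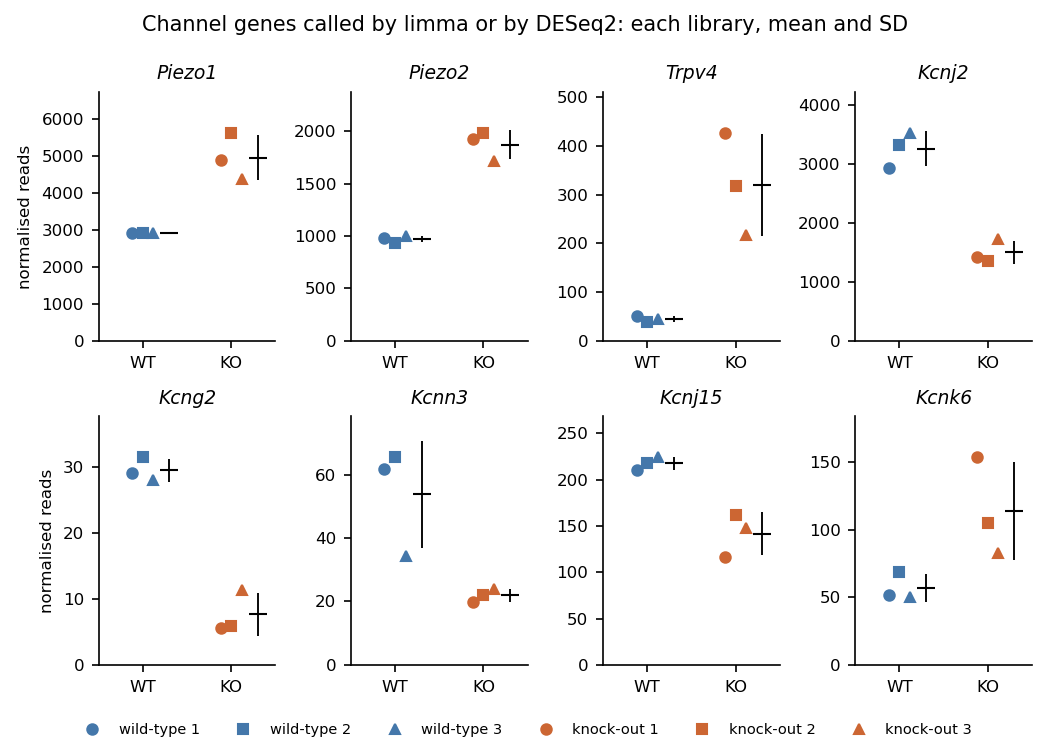
Normalised reads (vertical axes, starting at 0) of 5 of the 6 channel genes called by limma and of Kcnn3, Kcnj15 and Kcnk6, called by DESeq2 but neither by limma nor by edgeR; each point is 1 library, and the black bar gives the mean and SD of 3 libraries. Wild-type and knock-out libraries do not overlap in any panel, and as a ratio they come closest for Kcnk6 (68.7 in wild-type 2 and 82.9 in knock-out 3).

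Kcnj2, the highest channel gene of wild-type cells, fell. Its product Kir2.1 is the channel by which brain capillary endothelium responds to a rise of external potassium. The gene (ENSMUSG00000041695, chromosome 11, 111066164 to 111076821, plus strand) had 2941, 3331 and 3524 normalised reads in the wild-type group and 1432, 1360 and 1732 in the knock-out group. Every knock-out library was far below every wild-type library. The fold was 0.46 (0.38 to 0.56, adjusted p = 0.00211), with means of 3265 ± 297 and 1508 ± 197, so the level was 2.17 times lower. Adding the mural, neuron or choroid plexus level to the fit gave folds of 0.44, 0.49 and 0.47, each called.

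The other inward rectifiers were not called. The mean log2 level of 8 of all 10 was lower than in wild-type, against 7174 of all 14076 genes. The family median change was -0.46. Kcnj15 (Kir4.2) had 210, 218 and 224 normalised reads in the wild-type group and 116, 162 and 148 in the knock-out. These groups did not overlap, with a fold of 0.65 (0.50 to 0.84, adjusted p = 0.0649), and DESeq2 (adjusted p = 0.0281) and limma with array weights (0.0422) called the difference. Kcnj8 is used in brain mainly by pericytes and smooth muscle. It had 1176, 985 and 486 normalised reads in the wild-type group and 800, 1013 and 771 in the knock-out, a fold of 1.04 (0.64 to 1.67, adjusted p = 0.959). Its partner subunit Abcc9 (SUR2) had a fold of 1.00 (0.66 to 1.52). Kcnj8 and the summed mural markers were lowest in the same wild-type library, number 3. In knock-out 3 the mural sum was nearly as low (41853 against 40971), while Kcnj8 stood at 771 against 486. Kcnj12 (Kir2.2), the lowest of the uncalled log2 changes in the family, stood at -0.69 (adjusted p = 0.396). Kcnj10 (Kir4.1, a channel of astroglia) had 66.1 to 97.5 normalised reads in the wild-type group and 47.7 to 71.7 in the knock-out, where 1 of 9 astroglial markers, Gja1, fell. Summed per kilobase, the inward rectifiers came to 985 to 1155 in wild-type and 742 to 769 in the knock-out, within which the mean of Kcnj2 went from 600 to 277.

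Among the voltage-gated potassium channels, Kcng2 fell. It encodes Kv6.2, a subunit that forms no channel alone and modifies the channels it joins. The gene (ENSMUSG00000059852, chromosome 18, 80294546 to 80364254, minus strand) had 29.0, 31.4 and 28.0 normalised reads in the wild-type group and 5.66, 5.87 and 11.4 in the knock-out. The groups did not overlap, with a fold of 0.27 (0.15 to 0.49, adjusted p = 0.0233), but only 6 to 10 reads stood behind each knock-out value, and the gene passed the minimum mainly through the wild-type libraries. The call did not hold without wild-type 1 (0.0925), 2 (0.128) or 3 (0.0809), without knock-out 1 (0.0510) or 2 (0.0713), nor once the Y-linked level was a term of the fit (0.0681).

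The most abundant voltage-gated members were not called. Kcnq1 had 463, 518 and 564 normalised reads in the wild-type group and 698, 694 and 562 in the knock-out, so that knock-out 3 lay within the wild-type range (fold 1.26, 1.03 to 1.55, adjusted p = 0.205). Kcna6 was steady at 593 to 635 in wild-type and 551 to 674 in the knock-out, with a fold of 1.00 (0.84 to 1.18). On the opposite strand Gm26673, an antisense gene without values here, covers 39.6% of the exon bases of Kcna6. How reads of the shared bases were assigned is not known. Kcna5 (Kv1.5) was at 103 to 140 in 5 libraries and at 365 in knock-out 1, a fold of 1.33 (0.67 to 2.61). Kcnd2 (Kv4.2) had a fold of 0.52 with a wide interval (0.22 to 1.22, adjusted p = 0.405). The other members of the family had log2 changes between -0.65 (Kcns3) and 0.41 (Kcnd3).

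Among calcium-activated potassium channels, Kcnn3 (SK3), a channel of endothelium that turns calcium signals into hyperpolarisation, had 61.6, 65.4 and 34.3 normalised reads in the wild-type group and 19.8, 22.2 and 23.8 in the knock-out. All knock-out libraries lay below wild-type 3, the lowest wild-type library, and the fold was 0.43 (0.26 to 0.71, adjusted p = 0.0636). It was called by DESeq2 (0.0228), with array weights (0.0257) and without wild-type 3 (0.0426), and not by edgeR (0.0526). Kcnma1, the large-conductance channel of smooth muscle, had 66.8, 63.4 and 11.7 in wild-type and 67.9, 49.6 and 76.1 in the knock-out. Its lowest value was in wild-type 3, where the sum of the mural markers was lowest (40971). Its highest value was in knock-out 3, where that sum was nearly as low (41853). The fold of Kcnma1 was 1.69 (0.64 to 4.43). Kcnmb1, its smooth muscle auxiliary subunit, had 177, 127 and 66.8 in wild-type and 97.1, 105 and 79.5 in the knock-out, with a fold of 0.81 (0.48 to 1.39). Kcnt2, a sodium-activated channel, had a fold of 0.95 (0.55 to 1.63), and the other members, Kcnn2 and Kcnt1, had log2 changes of -0.22 and 0.83, neither called.

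Of the K2P channels, which carry a resting potassium leak, Kcnk6 (TWIK-2) had 52.0, 68.7 and 50.6 normalised reads in the wild-type group and 154, 105 and 82.9 in the knock-out. These groups did not overlap, with a fold of 1.93 (1.27 to 2.95, adjusted p = 0.0834), and the gene was called by DESeq2 (0.0228) and without knock-out 3 (fold 2.23, 0.0410). Kcnk1 (TWIK-1) had a fold of 1.28 (0.57 to 2.90) and Kcnk2 (TREK-1, opened by stretch) one of 1.31 (0.67 to 2.57), with the highest value in knock-out 1 (324) for Kcnk1 and in knock-out 3 (145) for Kcnk2. Kcnip3, a calcium-binding partner of Kv4 channels outside the rule for named genes, had 105, 105 and 133 in wild-type and 48.1, 61.4 and 89.7 in the knock-out. Its fold was 0.57 (0.38 to 0.85, adjusted p = 0.122), and it was called without knock-out 3 (fold 0.48, adjusted p = 0.0330). It was chosen after its values were seen. Of the other auxiliary potassium channel subunits, Kcne2 and Kcne4 had folds of 0.91 (0.33 to 2.54) and 1.44 (0.81 to 2.56). Kcnab2 lay below the wild-type libraries in all 3 knock-out libraries, and Kcnab3 and Kcnmb4 lay above them, without a call (adjusted p = 0.319, 0.337 and 0.310); they were named for this after their values were seen.

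No pore subunit of a voltage-gated calcium channel was called. Cacna1e was the highest of them per kilobase. It had 2127, 2701 and 2955 normalised reads in the wild-type group and 1527, 1070 and 2454 in the knock-out, with knock-out 3 inside the wild-type range. The fold was 0.62 (0.40 to 0.96, adjusted p = 0.217), and without knock-out 3 it was 0.50 (adjusted p = 0.0230). Cacna1a, a P/Q-type channel, had a fold of 1.04 (0.67 to 1.62), and Cacna1c, the L-type channel of smooth muscle, one of 0.89 (0.51 to 1.54). The other pores had log2 changes between -0.69 (Cacna1g, a T-type channel) and 0.41 (Cacna1b). Of the auxiliary subunits, Cacna2d1 had 399, 421 and 423 in the wild-type group, 332 and 332 in knock-out 1 and 2 and 1032 in knock-out 3. Its fold was 1.17 (0.62 to 2.19), and it was called as risen only with the neuron level in the fit (fold 1.68, adjusted p = 0.0443). Cacnb3 had a fold of 1.33 (0.69 to 2.55) and Cacng4 one of 0.76 (0.55 to 1.07), and the other auxiliary subunits had log2 changes between -0.23 (Cacnb4) and 0.40 (Cacnb1).

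The chloride channels and exchangers had log2 changes between -0.14 and 0.52, none of them called. Clcn3, Clcn4 and Clcn7, which exchange chloride for protons in endosomes and lysosomes, had folds of 1.07 (0.88 to 1.29), 0.91 (0.77 to 1.08) and 1.09 (0.90 to 1.31), and these 3 intervals stayed within a 1.5-fold change. Clcn5, named after its values were seen, had 235, 240 and 265 normalised reads in the wild-type group and 335, 311 and 329 in the knock-out, with no overlap and a fold of 1.32 (1.09 to 1.59, adjusted p = 0.0995). Of the sodium channel subunits, which carry action potentials in neurons, Scn8a had a fold of 0.77 with an interval from 0.32 to 1.85. Scn3b, an auxiliary subunit, had a fold of 0.96 (0.70 to 1.32). Scn1a, Scn2a, Scn2b and Scn3a had log2 changes between -0.21 (Scn2b) and 0.11 (Scn2a).

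Many of the members that were not called followed single libraries. Knock-out 3 was the highest library for 30 of the 92 channel genes (32.6%, against 17.7% of all genes), and it exceeded the next library by at least 1.5 times for 18 (19.6%, against 2.98% of all genes). The limit of 1.5 was chosen after the values were seen. These 18 included Kcnc1 (Kv3.1), Kcnq3 (a subunit of the M-current of neurons), Kcnj6 (GIRK2), Kcnb2, Cacna1b (the N-type calcium channel) and Scn3a. Kcnc1 had 35.6, 86.1 and 60.5 normalised reads in the wild-type group, 21.7 and 49.0 in knock-out 1 and 2, and 252 in knock-out 3. The spread within the knock-out group left a wide interval, with a fold of 1.13 (0.32 to 3.96). The neuron markers had the same order of the knock-out libraries, with 3090, 3233 and 6128 in knock-out 1, 2 and 3. Their part in these values was not tested beyond the fit with the neuron level.

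Knock-out 1 exceeded the next library by at least 1.5 times for 7 channel genes (7.61%, against 3.04% of all genes), which were Kcna5, Kcne2, Kcne4, Kcnh1, Kcnj13, Kcnk1 and Trpm3. Kcnj13 (Kir7.1) and Trpm3 are known from choroid plexus epithelium. Trpm3 had 609, 317 and 372 normalised reads in the wild-type group, 2305 in knock-out 1, and 448 and 417 in knock-out 2 and 3, a fold of 1.82 (0.69 to 4.76). Kcnj13 had 71.3, 40.7 and 43.3 in the wild-type group, 174 in knock-out 1, and 34.6 and 30.7 in knock-out 2 and 3. Gigyf2 on the opposite strand covers 49.1% of the exon bases of Kcnj13 and had 1545 to 1965 in all 6 libraries. The choroid plexus markers stood at 73583 in knock-out 1 and at 26550 in wild-type 1, the next highest. Knock-out 1 came first for these 7 channel genes by the way they were picked. Wild-type 1 came second for each of them.

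**Figure D4:**
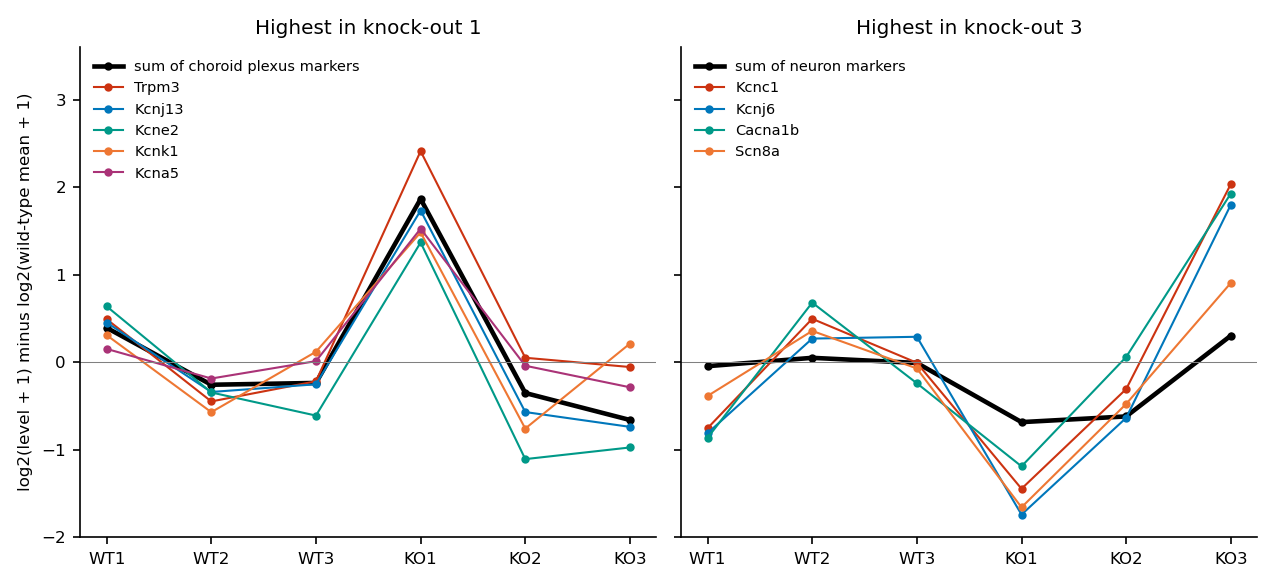
Log2 level of channel genes relative to the wild-type mean (vertical axis) in each library, wild-type 1 to 3 and knock-out 1 to 3, with the summed choroid plexus markers (left, black) or neuron markers (right, black); the genes, picked after values were seen, are among those highest in knock-out 1 (left) or knock-out 3 (right). The left lines peak in knock-out 1 and the right lines peak in knock-out 3, where Kcnc1 had 252 normalised reads.

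Of 88 listed partners, pumps and other ion transport genes, 82 passed the minimum, 8 rose (9.76%, against 3.6% of all genes tested), none fell by limma and 74 were not called. These lists were written with earlier results of these data known, so their shares cannot show an excess over all genes. The list of anion channels and cell volume regulation held 6 of the 8 risers among its 16 genes. The volume-regulated anion channel is built from LRRC8 proteins, with LRRC8A as the subunit it cannot lack. Lrrc8c had 1477, 1444 and 1582 normalised reads in the wild-type group and 2903, 2607 and 2148 in the knock-out, a rise of 1.69-fold (1.39 to 2.05, adjusted p = 0.0102). Lrrc8b had 1302, 1300 and 1224 in wild-type and 1937, 2284 and 1765 in the knock-out (1.56-fold, 1.30 to 1.86, adjusted p = 0.0146). Lrrc8a had 292, 243 and 291 in wild-type and 437, 401 and 371 in the knock-out (1.46-fold, 1.19 to 1.80, adjusted p = 0.0449). For these LRRC8 genes every knock-out library was above every wild-type library, whereas Lrrc8d overlapped (fold 0.96, 0.66 to 1.38). Clic1 and Clic4, chloride intracellular channel proteins, rose 1.55-fold (1.28 to 1.88) and 1.60-fold (1.28 to 1.99), and Ano6, a calcium-activated lipid scramblase and ion channel, rose 1.56-fold (1.25 to 1.95). Lrrc8a, Lrrc8d and Ano6 were named after their values were seen.

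Outside that list, Mdfic rose 1.69-fold (1.34 to 2.12, adjusted p = 0.0202), with 541, 494 and 458 normalised reads in the wild-type group and 1017, 796 and 729 in the knock-out. Its protein is an auxiliary subunit of Piezo channels, whose genes rose as well. Slc12a4, the potassium-chloride cotransporter KCC1, rose 1.57-fold (1.25 to 1.95, adjusted p = 0.0327). None of 11 genes of calcium stores and store-operated entry, 5 of mitochondrial calcium uptake and 15 other cation channels was called, and the only riser among 16 pumps and cotransporters was Slc12a4 and among 19 partners and regulators Mdfic. Tmem63b, an osmosensitive channel named after its values were seen, had a fold of 1.34 (1.11 to 1.60, adjusted p = 0.0751). All 8 calls were lost without wild-type 2, with adjusted p from 0.0647 (Lrrc8c) to 0.205 (Lrrc8a), and Lrrc8a was also lost with the replicate block (0.0738). Without wild-type 1 the 7 other than Lrrc8c were lost (Lrrc8b 0.0581, Clic1 0.0606, Clic4 0.105, Ano6 0.128, Lrrc8a 0.113, Slc12a4 0.121 and Mdfic 0.0518). Without wild-type 3 those lost were Lrrc8b (0.0616), Clic1 (0.0807), Ano6 (0.0808), Lrrc8a (0.101), Slc12a4 (0.112) and Mdfic (0.0778). Without knock-out 1 they were Clic1 (0.0520), Clic4 (0.0512), Ano6 (0.0764), Lrrc8a (0.101) and Slc12a4 (0.0764), and without knock-out 2 they were Clic1 (0.0778), Clic4 (0.0889), Ano6 (0.111), Lrrc8a (0.112), Slc12a4 (0.105) and Mdfic (0.0595).

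**Figure D5:**
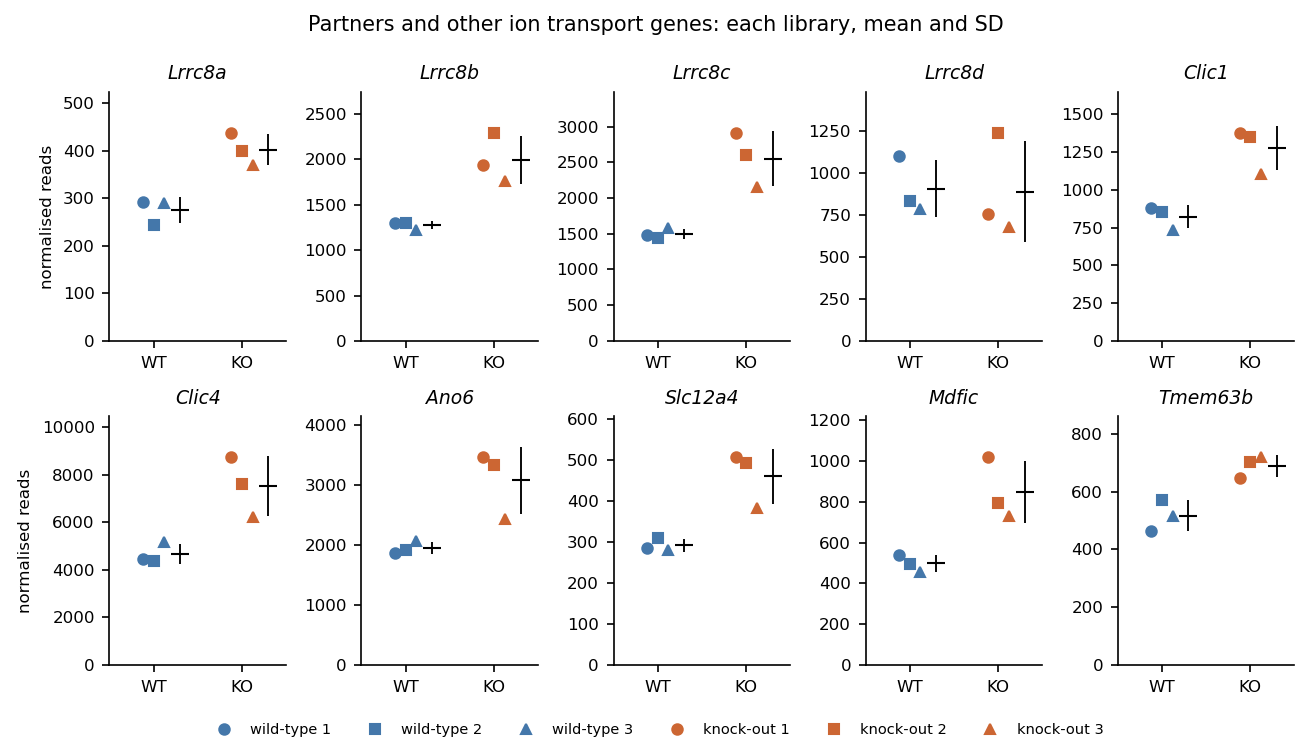
Normalised reads (vertical axes, starting at 0) of the 8 ion transport and partner genes that rose and of Lrrc8d and Tmem63b, which were not called; each point is 1 library, and the black bar gives the mean and SD of 3 libraries. The groups are separate in 9 panels and overlap for Lrrc8d.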

How the data were processed

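The table held a normalised signal per gene and library, which the authors made by dividing gene counts by 1 size factor per library. The submitters' processing notes name Trim Galore, STAR version 2.5.3a, the build GRCm38 and DESeq2. The sources used here do not name the counter, annotation or strand setting. All values (100%) were whole multiples of 1 step per library within 0.01 of a read, so whole reads were recovered for edgeR 4.0.16 and DESeq2 1.42.0. Of 14437 genes listed, the 14076 that reached 10 in 3 or more libraries were fitted on log2(value + 1), using R 4.3.3 and limma 3.58.1 (genotype, mean-variance trend, two-sided), which gave adjusted p-values, folds and 95% intervals. Folds on this scale understate changes of low genes. Exon lengths and positions came from GENCODE M21.

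Replicates differed by 14.2 to 58.8 chi-square units per degree of freedom, so no library was a copy of another. Both groups carry the numbers 1 to 3. Libraries of the same number had correlated deviations from their group means (r = 0.101, 0.110 and 0.192 for numbers 1, 2 and 3), although wild-type 1, 2 and 3 correlated best with knock-out 2, 3 and 3. With the replicate block in the fit, 4 channel genes rose and 2 fell, as without it.

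The members, lists and tests were chosen with earlier results of these data known. Named by rule were the called members, those called by edgeR or DESeq2 but not by limma, the 3 highest of each family per kilobase, the 8 largest changes, genes known from endothelium and vessel wall, and up to 4 called partners per list. Kcnn4 and Trpa1, also in the rule, were not among the genes kept. Besides Gja1, 4 erythroid genes and 1 neuron gene (Zic2) of the marker lists fell, and 1 platelet gene rose (Tubb1). Oligodendroglia, fibroblast and leukocyte markers gave no call. Values of 4 members are not reported here, and these are left out of the plots. The steps were tested on simulated counts, where DESeq2 made more false calls than limma and edgeR; the limit set on false calls was then held for limma and edgeR only.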

Additional observations from a re-analysis of the deposited data

How the results depend on the processing

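Trpv4, Piezo1, Piezo2 and Kcnj2 were called under all 21 alternatives, 1 of them (choroid plexus level in the fit) chosen after seeing the data; their highest adjusted p was 0.0141, 0.0442, 0.0162 and 0.0181. Kcng2 was called in 14 of 20 and in 1 of the 6 fits without 1 library, and was not tested at a minimum of 50. No direction of a called value reversed. The replicate block gave 445 rises and 324 falls over all genes and 9 rises among partner genes, where the call of Lrrc8a was lost and Atp1b1 and Slc12a2 gained one (adjusted p = 0.00748 and 0.0275); it changed no call among channel genes. With DESeq2, 805 genes rose and 568 fell, 4 channel genes fell, 15 partner genes rose, and 3 markers of other cells rose and 12 fell. With a term for the Y-linked level, 271 genes rose and 186 fell, 1 channel gene fell, 2 partner genes rose and 0 markers rose. The mural level ended the calls of Ano6, Clic4 and Lrrc8a (adjusted p = 0.0746, 0.0690 and 0.109), the neuron level those of Slc12a4 and Lrrc8a (0.0569 and 0.0901) and quantile scaling that of Lrrc8a (0.0543). A minimum of 50 left 1 channel gene fallen and 0 markers risen, array weights gave 4 channel genes fallen and 3 markers risen, and the mural level gave 0 markers risen. Quantile scaling and the choroid plexus level gave 2 markers risen. Quantile and upper-quartile scaling, array weights, the neuron level and DESeq2 gave 1 partner gene fallen (Ttyh2), and the choroid plexus level gave 1 (Pip5k1b). Leaving out 1 library gave 185 to 646 rises and 98 to 386 falls over all genes, 4 to 5 rises and 1 to 4 falls among channel genes, 0 to 9 and 0 to 1 among partner genes, 0 to 2 and 1 to 11 among markers, and a log2 change of Pdcd10 from -1.61 to -1.11. Causes were not tested. Scaling moved the median of all genes by less than 0.1 on the log2 scale. Depth limits Kcng2 and other members of few reads, and 3 libraries per group limit all tests.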
